A study of Mus musculus with 6 samples.

Results

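Mitosis and spindle genes are the genes whose products build the spindle, attach and separate the chromosomes and divide the cell. The 40 members were taken by gene symbol from a list, and all 40 were found among the 24408 genes of the deposited table. The rule itself uses no measured value, but the list was written with earlier results of these data known. The shares of all genes set beside the member counts below are therefore a description and no independent check. They were followed in lung fibroblasts before and after transfer into injured mouse lungs. Donor fibroblasts came from untreated mice carrying a collagen reporter (Col-GFP, on C57BL/6), after removal of cells with other lineage markers. Wild type host mice had received bleomycin, a drug that injures the lung, 7 days before the transfer into the airways. Col-GFP+ donor cells were sorted from host lungs 2, 4 and 7 days after transfer (Day 2, Day 4 and Day 7). For the Acta2 high and Acta2 low libraries, donors carried both Col-GFP and Acta2-mKO1, and the transferred cells were separated by expression of Acta2, the smooth muscle actin gene. The labels name no day for this separation. Donor cells that were never transferred made the Untreated library. Each of the 6 groups is 1 library, and the number of mice behind a library is not given in the sources used here. No difference below therefore has a replicate check, and no p-value is given.

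Entry into mitosis is driven by the kinase Cdk1 with its B-type cyclins, while the aurora and polo kinases shape the spindle and the spindle checkpoint holds the anaphase-promoting complex until all chromosomes are attached. That complex then destroys securin and cyclin B, and the chromosomes part. Transcripts of most of these genes accumulate late in the cell cycle and are scarce in resting cells, and lung fibroblasts of healthy adults are mostly at rest. Late cell cycle genes are known for a promoter element called CHR (cell cycle genes homology region), which is read by complexes built on the MuvB core, and for CCAAT boxes, which are bound by the factor NF-Y.

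The promoters are shown because many of the members hold these elements. The choice of members did not use sequence, but genes of this kind are known for the elements, so the overlap is no independent finding. RefSeq promoter windows (build GRCm38.p6, 250 bases before to 50 bases after the gene start) were at hand for 34 members, with 37 windows in all. Each window was searched on both strands for TTTGAA and TTCGAA, the CHR forms, and for CCAAT, and no match overlapped one of another motif. TTTGAA was found in 27 of the 37 member windows (73.0%), against 17.9% of all 32851 windows of that length. TTCGAA was found in 4 of 37 (10.8%), against 1.56%. CCAAT was found in 30 of 37 (81.1%), against 37.4%. Both TTTGAA and CCAAT were found in 25 of 37 (67.6%), against 6.95%. These shares describe letters in a window and not bound sites. Of the 36 matches to TTTGAA in member windows, 27 began at position -100 or later, counted from the gene start.

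The following stretches cover positions -120 to -1 of the 7 members with a window that were most abundant at Day 2 among those past 4-fold (as defined below) on Day 2 as well as Day 4, and of Pttg1, which was chosen after its values were seen because it went the other way. Capitals mark a match on either strand, so that a match on the opposite strand reads TTCAAA or ATTGG. The stretches lie at chr10:69352913-69353032 (minus strand) for Cdk1, chr3:89418292-89418411 (minus) for Cks1b, chr2:164769809-164769928 (plus) for Ube2c, chr5:30666766-30666885 (plus) for Cenpa, chr7:122159315-122159434 (plus) for Plk1, chr13:51645112-51645231 (plus) for Cks2, chr11:117849117-117849236 (plus) for Birc5 and chr11:43425982-43426101 (minus) for Pttg1.
Cdk1: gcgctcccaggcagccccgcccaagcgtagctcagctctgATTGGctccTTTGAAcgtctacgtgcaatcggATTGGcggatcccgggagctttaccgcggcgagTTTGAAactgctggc
Cks1b: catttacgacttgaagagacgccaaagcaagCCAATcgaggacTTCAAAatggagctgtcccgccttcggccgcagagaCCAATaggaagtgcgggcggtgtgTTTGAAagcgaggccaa
Ube2c: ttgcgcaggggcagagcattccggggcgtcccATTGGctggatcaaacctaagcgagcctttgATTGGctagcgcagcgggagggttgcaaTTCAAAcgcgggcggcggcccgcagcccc
Cenpa: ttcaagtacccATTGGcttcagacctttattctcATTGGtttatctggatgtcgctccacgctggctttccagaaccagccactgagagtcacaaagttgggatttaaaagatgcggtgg
Plk1: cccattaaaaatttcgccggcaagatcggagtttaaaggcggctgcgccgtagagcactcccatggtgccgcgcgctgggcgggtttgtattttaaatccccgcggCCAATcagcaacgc
Cks2: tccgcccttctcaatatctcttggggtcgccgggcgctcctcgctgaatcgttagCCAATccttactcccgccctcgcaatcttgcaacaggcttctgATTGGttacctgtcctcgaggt
Birc5: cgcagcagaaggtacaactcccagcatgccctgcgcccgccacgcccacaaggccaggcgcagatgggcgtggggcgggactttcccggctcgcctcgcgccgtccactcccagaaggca
Pttg1: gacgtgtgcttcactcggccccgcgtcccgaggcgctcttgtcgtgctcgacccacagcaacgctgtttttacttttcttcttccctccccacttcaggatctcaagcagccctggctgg
Cdk1 holds TTTGAA at -71 and -15 with CCAAT at -80 and -48 among its matches, and Cks1b holds TTTGAA at -77 and -17 with CCAAT at -89 and -41. Ube2c holds TTTGAA at -29 and 6 CCAAT matches in its window. In Cenpa and Plk1 the TTTGAA match begins after the gene start, at 17 and 31, outside the stretch shown. Cks2 holds 4 CCAAT matches and no TTTGAA. Birc5 and Pttg1, with Mad2l1, Nusap1 and Tacc3, hold none of the 3 motifs in the window.

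**Figure D1:**
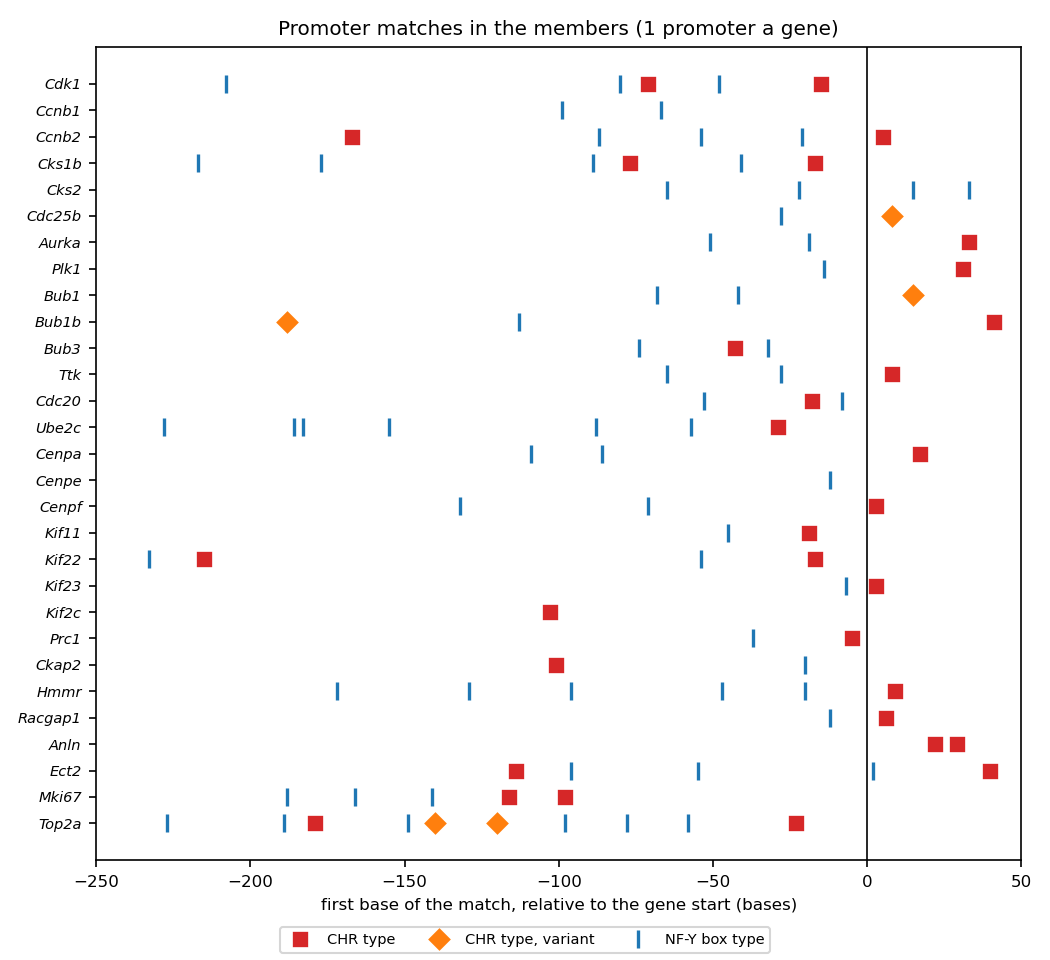
Position of CHR-type matches (squares, with the variant form as diamonds) and NF-Y box matches (bars) in the first RefSeq promoter window of each member that holds any, in bases from the gene start (vertical line). Of the 36 matches to TTTGAA (squares) over all 37 windows, 27 begin at -100 or later.

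The assay was 3' SAGE, which counts 1 short tag per transcript from near its 3' end, and levels are given as CPM, tags per 1000000 assigned tags. The libraries held 4448065 to 6175334 tags, and 1 tag is worth 0.162 to 0.225 CPM. Over the 5 recovered libraries the summed level of the 4 leukocyte markers in the table was 0.342 to 1.18 CPM, against 0.548 in Untreated, that of the 8 macrophage markers 1.35 to 2.16 against 0.548, that of the 6 lymphocyte markers 0 to 1.30 against 0.183, that of the 3 neutrophil markers 0 to 0.786 against 0, and that of the 6 endothelial markers 0.225 to 0.589 against 2.56. Ptprc, Cd68 and Cdh1, of the leukocyte, macrophage and epithelial lists, had no tag in any library. Other genes of these lists, such as Coro1a, Csf1r and Sftpc, had tags in every library. A gene without a tag in any library may be one the assay cannot count, so its 0 does not show that a cell type is absent. The 5 mesothelial markers summed to 2.73 to 10.8 CPM against 45.9, and the 7 smooth muscle and pericyte markers to 52.1 to 254 against 13.2. The 9 epithelial markers summed to 12.4 to 306 against 48.6, with the highest value in Acta2 low. Most of that value came from Krt8 at 265 CPM and Krt18 at 31.8. In Acta2 low Sftpc, Sftpa1 and Scgb1a1 stood at 5.11, 2.75 and 0.786 CPM, against 20.7, 7.13 and 10.4 in Untreated, and Epcam had 1 tag in each. All 8 fibroblast markers had tags in every library, with sums of 3779 to 19413 CPM in the recovered libraries against 10327 in Untreated. The part of these cells in the members' levels was not tested.

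Almost the whole spindle and mitosis set was near 0 in the Untreated cells and present in every recovered library. In Untreated, 11 of the 40 members had no tag and 22 had at most 1, while at Day 2, Day 4 and in both Acta2 sorts every member had at least 2. The median member stood at 8.83 CPM at Day 2, 6.18 at Day 4, 1.96 at Day 7, 6.99 in Acta2 high and 8.54 in Acta2 low, against 0.183 in Untreated. In 38 of 40 members every recovered library lay above Untreated, and in 38 of 40 Day 7 was the lowest of the 5 recovered libraries. The exceptions to the first count are Pttg1 and Ect2, and to the second Pttg1 and Bub1. Neither count was made over all genes. The median gene of at least 10 CPM also lay above Untreated in all 5 recovered libraries, by 0.27 to 0.66 log2, so the first count is in part general. In such bulk libraries, more dividing cells and more transcripts per dividing cell cannot be told apart.

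**Figure D2:**
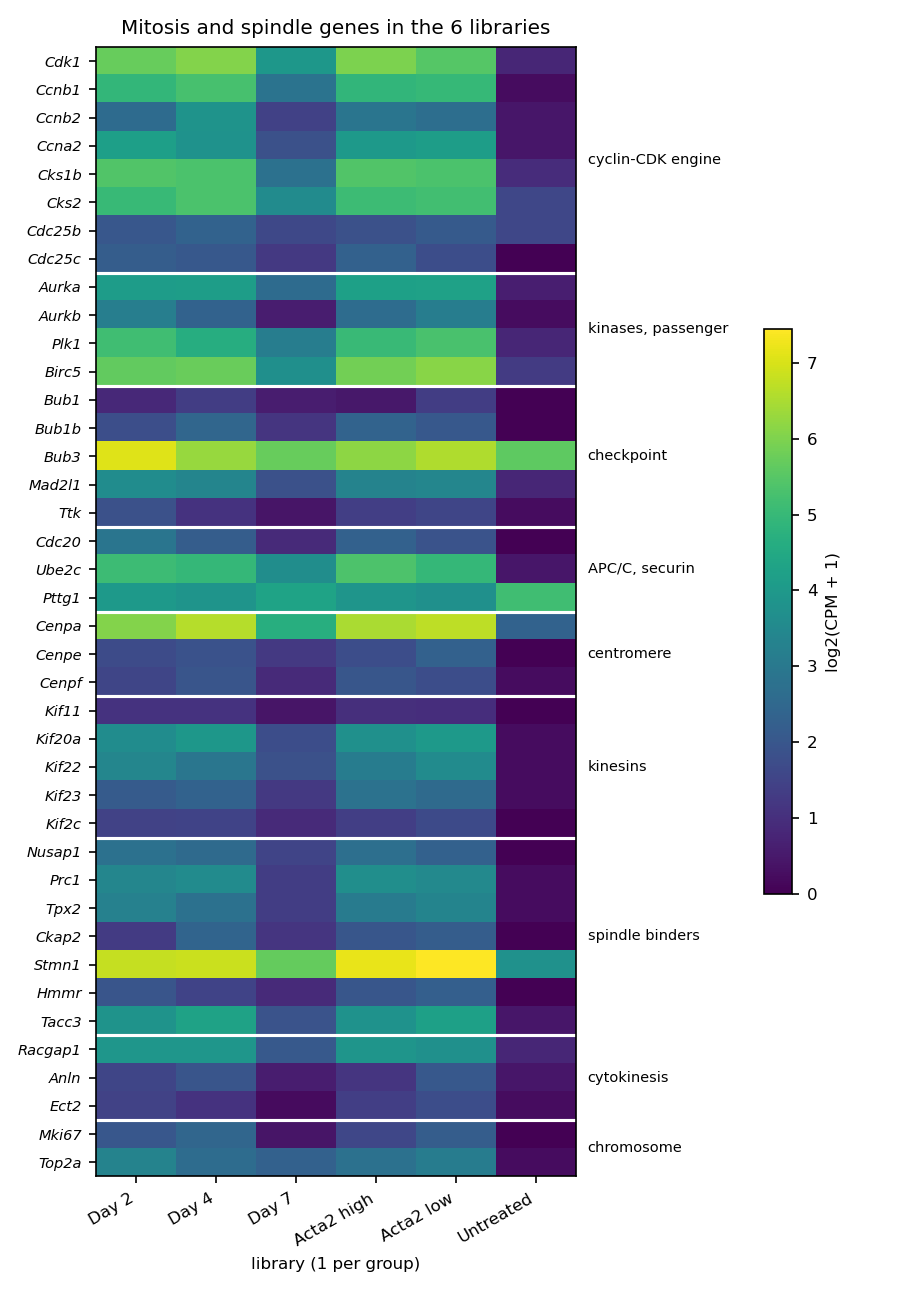
Level of each of the 40 members, as log2(CPM + 1), in the 6 libraries, ordered by role. The Untreated column is dark (low) in nearly all rows, with Bub3, Pttg1 and Stmn1 the brightest in it, and for most rows the Day 7 column lies between it and the other recovered libraries.

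A difference was taken as log2(CPM + 1), and a gene was counted as higher or lower when it reached 4-fold on that scale. The pseudocount of 1 CPM understates the change of low genes, and a gene at 0 in one library needs 3 CPM in the other to be counted. No filter on low values was used. Ratios of single genes are CPM ratios divided by that of the median gene, which was shifted by 0.66 log2 at Day 2, 0.31 at Day 4, 0.39 at Day 7, 0.27 in Acta2 high and 0.42 in Acta2 low against Untreated. Their 95% intervals are exact conditional (Clopper-Pearson) intervals of the tags and cover counting error only. The labels mention no molecular identifiers that would mark PCR copies.

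By Day 2 members of every role group were higher than in Untreated. Of the 40 members, 25 were at least 4-fold higher at Day 2 than in Untreated and none was 4-fold lower, where 5.42% and 2.05% of the 15630 genes with a tag in any library passed the same rule. The median member differed by 2.87 log2, and the median of all those genes by 0.22. At Day 4, 28 of 40 were at least 4-fold higher (4.01% of all genes) and none was 4-fold lower (2.21%), with a median of 2.50 against 0.00 for all genes. At Day 7, 8 of 40 were at least 4-fold higher (2.4% of all genes) and none 4-fold lower (1.25%), with a median of 1.13 against 0.14. By a 2-fold rule 37 members were higher at Day 2 (19.6% of all genes), and 25 at Day 7 (11.6%). The 3 time points share the Untreated library. The Day 2 and Day 4 counts were 10 each with a pseudocount of 5 CPM, which weighs down genes below that level, and the Day 7 count was 0.

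In the cyclin-CDK engine, 7 of 8 members were past 4-fold higher at Day 2 (5.42% of all genes), and 7 at Day 4 (4.01%). Cdk1, the mitotic kinase, stood at 51.8 CPM at Day 2, 65.4 at Day 4, 14.2 at Day 7, 61.7 in Acta2 high and 43.8 in Acta2 low, against 0.731 in Untreated. Ccnb1, its B-type cyclin, stood at 29.5, 38.0, 6.15, 28.8 and 30.4 CPM in the same order, against 0.183 in Untreated. The lowest recovered library of each gene, Day 7, lay above Untreated by more than the counting intervals. Relative to the median gene, Cdk1 was 72.2-fold higher at Day 4 (27.9 to 267) and 14.8-fold at Day 7 (5.59 to 55.8). Ccnb1 had 1 tag in Untreated, and its Day 4 ratio was 168 (29.7 to 6664) and its tag may be shared with 4 other annotated genes, among them Ccnb1-ps, so its value is uncertain.

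Cks1b and Cks2 are the paralogous small subunits that bind the mitotic CDKs. Cks1b stood at 41.5 CPM at Day 2, 39.3 at Day 4, 5.81 at Day 7, 41.5 in Acta2 high and 39.3 in Acta2 low, against 0.914 in Untreated. Cks2 stood at 31.3, 39.6, 11.1, 33.1 and 35.4 CPM in that order, against 2.01 in Untreated. For each gene Day 7 was the lowest recovered library, with counting intervals of 4.02 to 8.12 CPM for Cks1b and 8.57 to 14.2 CPM for Cks2, and it lay above Untreated. The tag of Cks1b may be shared with 2 other annotated genes. Ccna2, the cyclin of S phase and early mitosis, stood at 17.3 CPM at Day 2, 12.8 at Day 4, 2.56 at Day 7, 15.4 in Acta2 high and 16.5 in Acta2 low, against 0.366 in Untreated, and was 30.1-fold higher at Day 2 (8.12 to 251). Ccnb2, another B-type cyclin, stood at 5.02, 13.0, 1.71, 6.39 and 5.50 CPM in that order, against 0.366 in Untreated, and was 28.8-fold higher at Day 4 (7.62 to 243). Ccnb2 was thus highest at Day 4 and Ccna2 at Day 2. For Ccna2 this lay within counting error, since its ratio at Day 4 against Day 2 was 0.942 (0.670 to 1.31).

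The phosphatases that activate Cdk1 did not share one pattern. Cdc25c had 22 tags at Day 2 and 14 at Day 4, against 0 in Untreated. With Untreated set to the floor of 3 tags, the ratios were 4.12 and 4.63. The counting intervals, which also carry the error of the Day 2 and Day 4 tags, begin at 3.08 and 3.29. Cdc25b stood at 3.08 CPM at Day 2, 4.05 at Day 4, 2.05 at Day 7, 2.60 in Acta2 high and 3.34 in Acta2 low, against 2.01 in Untreated. Its Day 2 ratio was 0.970 (0.439 to 2.26), and its direction turns with the scaling at Day 2 and Day 7.

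In the kinase and passenger group, Day 2 and Day 4 were past 4-fold higher for all 4 members (5.42% and 4.01% of all genes). Plk1, the polo kinase, stood at 34.8 CPM at Day 2, 24.1 at Day 4, 7.86 at Day 7, 31.7 in Acta2 high and 38.7 in Acta2 low, against 0.731 in Untreated. Birc5, the survivin subunit that carries aurora B to the centromere, stood at 49.7, 52.2, 12.0, 57.5 and 67.8 CPM in that order, against 1.46 in Untreated. Plk1 was 30.2-fold higher at Day 2 (11.6 to 112) and Birc5 21.6-fold (10.8 to 50.4). Aurka, the kinase of spindle poles, stood at 16.2 CPM at Day 2, 16.6 at Day 4, 5.13 at Day 7, 17.6 in Acta2 high and 18.1 in Acta2 low, against 0.548 in Untreated, and was 18.7-fold higher at Day 2 (6.23 to 92.3). Aurkb, the kinase of the passenger complex, had 50 tags at Day 2, 18 at Day 4 and 3 at Day 7, against 1 in Untreated.

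Of the 5 spindle checkpoint members, 1 was past 4-fold higher at Day 2 (5.42% of all genes) and 2 at Day 4 (4.01%). The group is small, so these counts are a description only. Bub3, a WD40 protein of the checkpoint, was abundant before transfer and stood at 134.7 CPM at Day 2, 77.1 at Day 4, 51.8 at Day 7, 71.9 in Acta2 high and 92.1 in Acta2 low, against 47.0 in Untreated. It was 1.82-fold higher at Day 2 (1.58 to 2.10), and at Day 7 its ratio was 0.844 (0.712 to 1.000), a direction that turns with the scaling. Mad2l1, which inhibits the Cdc20 activator, stood at 11.3 CPM at Day 2, 9.44 at Day 4, 2.56 at Day 7, 8.99 in Acta2 high and 9.63 in Acta2 low, against 0.731 in Untreated. Bub1b had 15 and 20 tags at Day 2 and Day 4 against 0, while Bub1 had 5 and 7 against 0 and Ttk 16 and 5 against 1. The last of these sit close to the limit of this depth, since a count of 0 in Untreated allows up to 0.548 CPM.

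In the group of the anaphase-promoting complex activator, its E2 enzyme and securin, the E2 gene and the securin gene went opposite ways. Ube2c, the E2 enzyme that starts ubiquitin chains on mitotic substrates, stood at 33.2 CPM at Day 2, 30.1 at Day 4, 11.6 at Day 7, 40.3 in Acta2 high and 30.1 in Acta2 low, against 0.366 in Untreated. It was 57.6-fold higher at Day 2 (15.7 to 479) and 24.3-fold at Day 7 (6.48 to 205). Cdc20, the activator of the complex, had 40 tags at Day 2, 16 at Day 4 and 5 at Day 7, against 0 in Untreated. Pttg1, securin, stood at 15.1 CPM at Day 2, 13.5 at Day 4, 19.0 at Day 7, 13.6 in Acta2 high and 12.2 in Acta2 low, against 34.4 in Untreated. Pttg1 was the only one of the 40 members that lay below Untreated in all 5 recovered libraries. Relative to the median gene it was 3.60-fold lower at Day 2 (2.79 to 4.66), 3.16-fold at Day 4 (2.35 to 4.30) and 2.37-fold at Day 7 (1.86 to 3.02), which does not reach 4-fold. By the 2-fold rule it was the 1 member lower at Day 2 (6.84% of all genes), Day 4 (8.87%), in Acta2 high (8.41%) and in Acta2 low (7.72%), and at Day 7 no member passed it (4.38%).

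**Figure D3:**
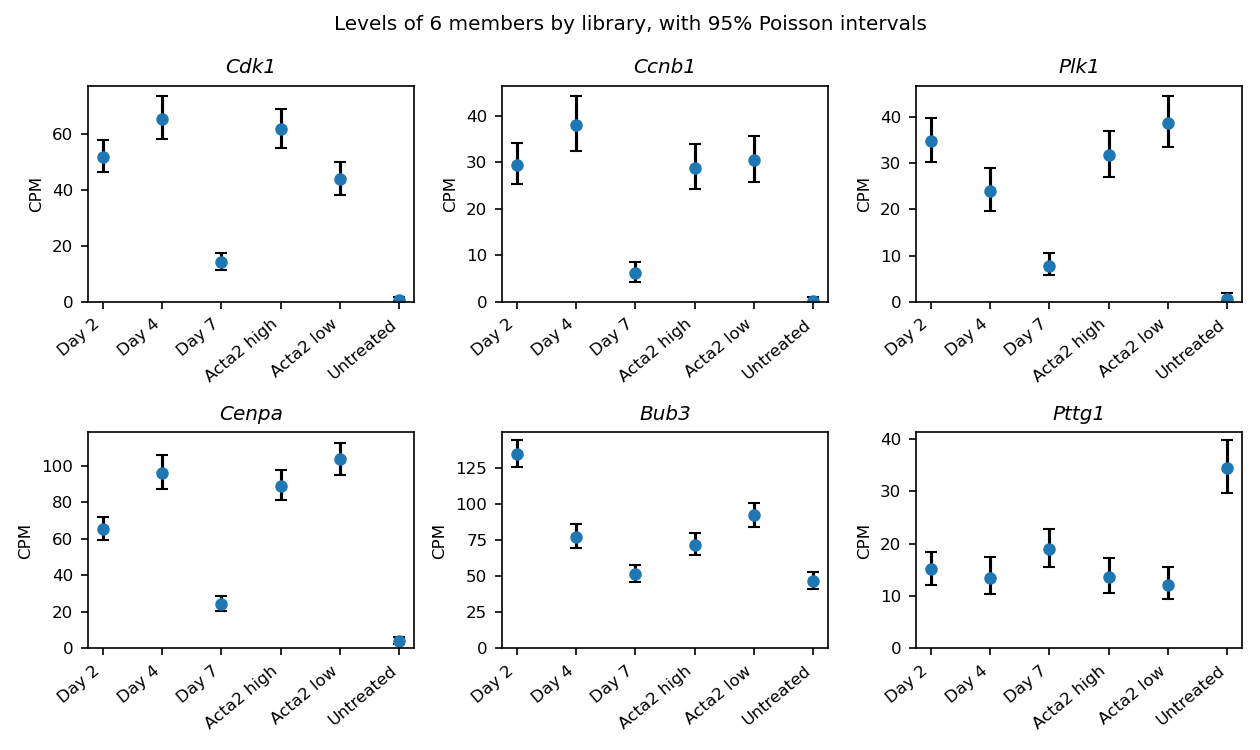
Level of 6 members in CPM by library, with 95% Poisson intervals of the tag count. Cdk1, Ccnb1, Plk1 and Cenpa are near 0 in Untreated and low at Day 7, Bub3 is high throughout, and Pttg1 is highest in Untreated at 34.4 CPM.

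Of the centromere genes, Cenpa, the histone variant that marks centromeres, stood at 65.4 CPM at Day 2, 96.0 at Day 4, 24.4 at Day 7, 89.1 in Acta2 high and 103 in Acta2 low, against 4.02 in Untreated. It was 10.3-fold higher at Day 2 (6.72 to 16.6) and 19.3-fold at Day 4 (12.6 to 31.1). Cenpe, a kinetochore motor, and Cenpf, a large kinetochore protein, stayed at 3.93 CPM or less in every library. The kinesins, the motors of the spindle, summed to 27.2 CPM at Day 2, 27.9 at Day 4 and 7.52 at Day 7, against 0.548 in Untreated. Kif20a, a motor of the late spindle midzone, stood at 11.2 CPM at Day 2, 14.4 at Day 4, 2.39 at Day 7, 12.2 in Acta2 high and 15.3 in Acta2 low, against 0.183 in Untreated. Kif22, a chromosome-arm motor, stood at 9.72, 6.52, 2.56 and 7.79 CPM at Day 2, Day 4, Day 7 and in Acta2 high, with 56 tags in Acta2 low, against 0.183 CPM (1 tag) in Untreated. Kif2c had 11 tags at Day 2, against 0 in Untreated. Kif11, which pushes spindle poles apart, had 2 to 7 tags in the recovered libraries and 0 in Untreated.

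Of the 7 spindle microtubule binders, 5 passed 4-fold higher at Day 2 (5.42% of all genes) and 6 at Day 4 (4.01%). Stmn1, which destabilises microtubules and is not limited to mitosis, stood at 109.3 CPM at Day 2, 113.5 at Day 4, 50.2 at Day 7, 145 in Acta2 high and 173 in Acta2 low, against 12.6 in Untreated, and was 5.50-fold higher at Day 2 (4.29 to 7.15). Tacc3, a stabiliser of spindle fibres, stood at 13.3 CPM at Day 2, 18.4 at Day 4, 2.73 at Day 7, 13.0 in Acta2 high and 17.7 in Acta2 low, against 0.366 in Untreated, and was 40.7-fold higher at Day 4 (10.9 to 342). Prc1, which bundles midzone microtubules, stood at 9.72, 11.02, 1.54, 11.8 and 10.4 CPM in that order, against 0.183 in Untreated. Tpx2, which activates aurora A, reached 8.58 CPM at Day 2 against 0.183 in Untreated. The tag of Stmn1 may be shared with 1 other annotated gene. Tags of Prc1 transcripts may be shared with 349 others, so the Prc1 value is uncertain. Nusap1 had 36 tags at Day 2 and Hmmr 18, against 0 each in Untreated. Of the cytokinesis genes, Racgap1, a subunit of the centralspindlin complex, stood at 13.9 CPM at Day 2, 14.2 at Day 4, 3.25 at Day 7, 13.6 in Acta2 high and 12.2 in Acta2 low, against 0.731 in Untreated, while Anln and Ect2 did not exceed 3.14 and 2.36 CPM in any library. Mki67, the proliferation marker, had 19, 20 and 2 tags at Day 2, Day 4 and Day 7, against 0 in Untreated, and Top2a, which untangles sister chromosomes, had 56, 23 and 23 against 1.

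None of 40 members reached 4-fold either way at Day 4 against Day 2, where 0.154% and 0.141% of all genes did, and the median difference was 0.03 log2 against -0.17 for all genes. Ccnb2, at 13.0 CPM at Day 4 against 5.02 at Day 2, and Ckap2, a spindle protein, at 4.27 against 1.46, were the 2 members past 2-fold (1.86% of all genes), 3.31-fold (2.10 to 5.29) and 3.73-fold (1.61 to 9.36) higher relative to the median gene, which was 0.35 log2 lower at Day 4. Cenpa was 1.87-fold higher (1.63 to 2.15). Bub3 was 1.37-fold lower (1.21 to 1.56), at 77.1 CPM at Day 4 against 134.7 at Day 2, and was the 1 member whose interval lay below 1 (9.81% of all genes), where 11 lay above it (11% of all genes). Aurkb, at 4.05 CPM at Day 4 against 8.10 at Day 2, and Plk1, at 24.1 against 34.8, had lower CPM, with intervals that hold 1 relative to the median gene. The direction of 7 members turns with the scaling, among them Cks1b, Ube2c and Mad2l1.

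Between Day 4 and Day 7 nearly all members were lower at Day 7. CPM was lower at Day 7 in 39 of 40 members, Pttg1 being the exception, and 9 were at least 4-fold lower (0.819% of all genes), 28 at least 2-fold lower (4.61%) and none was 4-fold (0.851%) or 2-fold higher (7.49%). The median difference was -1.32 log2, against 0.02 for all genes. Those past 4-fold were Cks1b, Ccnb1, Ccnb2, Cdk1, Tacc3, Prc1, Kif20a, Birc5 and Mki67. Cks1b was 7.10-fold lower at Day 7 (4.90 to 10.6), Ccnb1 6.48-fold (4.50 to 9.56) and Cdk1 4.84-fold (3.78 to 6.25). Ube2c was 2.72-fold lower (2.02 to 3.70), Stmn1 2.37-fold (2.05 to 2.75) and Bub3 1.56-fold (1.33 to 1.83). Top2a had 23 tags in each of the 2 libraries, a ratio of 0.725 (0.389 to 1.35), and Pttg1 a ratio of 1.34 (0.971 to 1.87). The direction of each member held under the 3 other scalings. The 4-fold count was 1 with a pseudocount of 5 CPM and 14 with 0.1 CPM.

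The 40 members summed to 776 CPM at Day 2, 770 at Day 4 and 261 at Day 7, against 112 in Untreated. Without Bub3, Stmn1 and Pttg1, the 3 members at 10 CPM or more in Untreated, left out after their values were seen, the other 37 summed to 517 CPM at Day 2, 566 at Day 4 and 139.6 at Day 7, against 17.7 in Untreated. Day 7 lay between Day 4 and Untreated in both sums. Leaving out members that are high in Untreated raises the ratios to Untreated by the choice itself, while the differences in CPM become smaller.

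**Figure D4:**
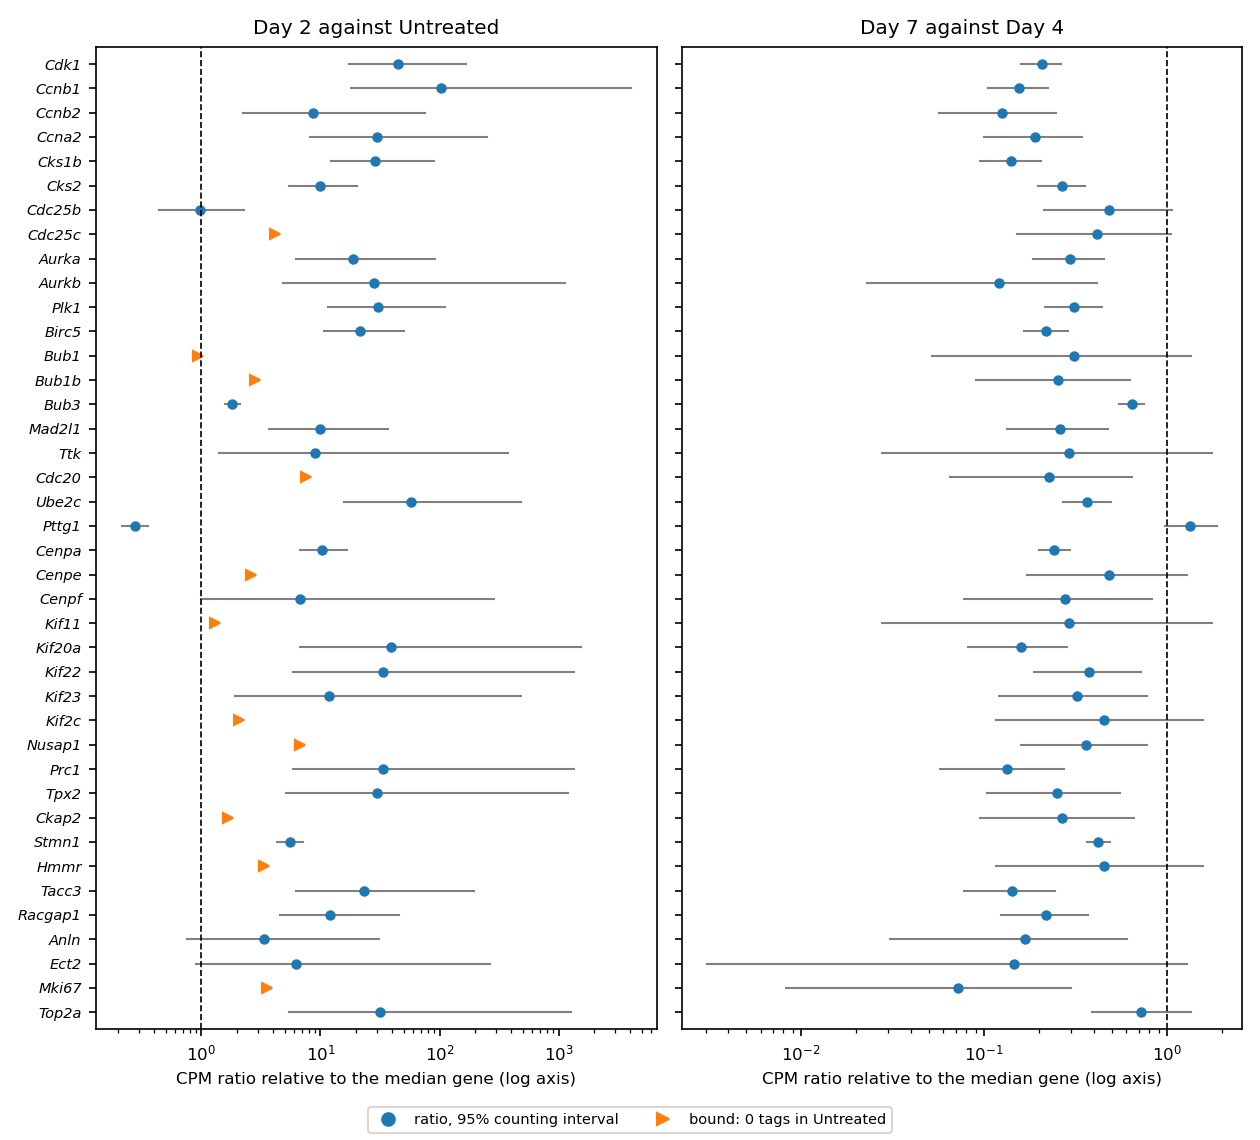
CPM ratio of each member relative to the median gene (log axis) with its 95% counting interval (line), for Day 2 against Untreated (left) and Day 7 against Day 4 (right). Arrowheads (called bounds in the legend) are ratios for members with 0 tags in Untreated, with Untreated set to a floor of 3 tags. They leave out the counting error of the Day 2 tags and lie above the lower ends of the counting intervals. The dashed line marks 1. Pttg1 lies on the opposite side from nearly all other members in both panels.

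Between the 2 Acta2 sorts few mitotic transcripts differed beyond counting error. Against Untreated, 26 of 40 members were at least 4-fold higher in Acta2 high (3.44% of all genes) and 28 of 40 in Acta2 low (3.75%), none was 4-fold lower in either (2.14% and 2.03%), and they had medians of 2.52 and 2.47 log2 against 0.00 and 0.02 for all genes. Both comparisons share the Untreated library. Between the sorts themselves, where Acta2 stood at 451 CPM in Acta2 high and 277 in Acta2 low, none of 40 members reached 2-fold either way, as 0.825% of all genes did on the higher and 1.24% on the lower side, and 0.0576% were 4-fold lower. The median difference was -0.19 log2 for the members and 0.00 for all genes, and that of the median gene of at least 10 CPM was -0.14. For 37 members the counting interval holds 1. Cdk1, at 61.7 CPM in Acta2 high against 43.8 in Acta2 low, was 1.55-fold higher (1.30 to 1.86), and Ube2c, at 40.3 against 30.1, was 1.48-fold higher (1.19 to 1.84). Bub3, at 71.9 against 92.1 CPM, was 1.16-fold lower (1.01 to 1.34). Intervals above 1 were found for 6.71% of all genes and below 1 for 6.4%, so 2 and 1 of 40 are not more than the background.

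The weaker members leave room for differences between the sorts that this depth could not show. Mki67 had 10 tags in Acta2 high and 18 in Acta2 low, a ratio of 0.623 (0.257 to 1.42), and Anln had 6 and 16, a ratio of 0.421 (0.135 to 1.13). Cenpa, with 446 and 526 tags, had a ratio of 0.951 (0.837 to 1.08), and Ccnb1 a ratio of 1.04 (0.825 to 1.32). The direction of 5 members turns with the scaling, namely Ccnb1, Ccna2, Aurka, Mad2l1 and Cks2. The keratins Krt8 and Krt18 of the epithelial list stood at 6.99 and 1.40 CPM in Acta2 high, against 265 and 31.8 in Acta2 low. The part of the cells behind them in the levels above was not tested.

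Across the 6 libraries most members followed one profile. As a description over 6 points that share their libraries and depth, 33 of 40 members had a Pearson correlation of at least 0.9 with the median member on the log2(CPM + 1) scale. Since that profile is made of the same members, their likeness to it is in part built in. Kif22, Tpx2 and Ccna2 were closest, at 0.996 each, and Pttg1 was the only negative one, at -0.96. Among 4147 other genes with a mean of at least 10 CPM, a filter not put on the members, 597 (14.4%) also reached 0.9. The 5 closest to the profile were Lmnb1, 2900010J23Rik, Asf1b, Lrrc59 and Rpa3, at 0.994 to 0.999. Lmnb1, the B-type lamin of the nuclear envelope, stood at 16.5 CPM at Day 2, 13.3 at Day 4, 5.64 at Day 7, 13.4 in Acta2 high and 16.9 in Acta2 low, against 1.83 in Untreated.

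A list of 84 other mitotic genes (among them condensins, kinetochore and cohesin subunits, further kinesins and kinases) held 80 in the table. Of these, 26 were at least 4-fold higher at Day 2 than in Untreated, 24 at Day 4 and 3 at Day 7, where 5.42%, 4.01% and 2.4% of all genes were, and none was 4-fold lower. The Day 7 count is near that background. The medians were 1.17, 1.16 and 0.51 log2. Spc24, a kinetochore subunit, stood at 61.4 CPM at Day 2, 50.6 at Day 4 and 14.7 at Day 7, against 1.10 in Untreated, and Pbk, a mitotic kinase, at 14.3, 10.3 and 1.88, against 0. Cenpw, a centromere protein, stood at 38.2, 31.2 and 11.6 CPM, against 2.38. Of 15 genes for factors that act on mitotic promoters, 2 were past 4-fold higher at Day 2 and the same number at Day 4, beside the same shares of all genes. The genes past 4-fold were Foxm1, a forkhead activator, at 5.83 CPM at Day 2, 11.7 at Day 4 and 0.854 at Day 7, against 0.366 in Untreated, and Mybl2, B-Myb, at 3.89, 4.95 and 0.513, against 0. Both genes also stand in the list of 84 and are counted there among the genes past 4-fold at Day 2 and Day 4. By the 2-fold rule 8 of the 15 factor genes were higher at Day 2 (19.6% of all genes). The NF-Y subunit genes stood at 2.27, 2.92 and 2.56 CPM against 2.01 for Nfya, 9.55, 6.74 and 2.90 against 3.47 for Nfyb, and 40.2, 29.7 and 29.7 against 18.6 for Nfyc, in the same order. Rbl2, the p130 pocket protein of resting cells, stood at 0.648, 1.12 and 1.20 against 4.75. Of 23 S-phase genes in the table, 15 passed 4-fold at Day 2, 11 at Day 4 and 6 at Day 7 (5.42%, 4.01% and 2.4% of all genes), with medians of 2.86, 1.85 and 0.81. At Day 4 against Day 2 the S-phase median was -0.69 log2, beside 0.03 for the mitotic members and -0.17 for all genes, and this gap between lists was not tested.

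The promoter motifs were found in members on both sides of the 4-fold threshold. TTTGAA was found in 13 and CCAAT in 15 of the 19 members with a window that passed it on Day 2 and Day 4 alike, and in 11 and 12 of the 15 other members with one.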

How the data were processed

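The authors deposited 1 table of CPM values (tags per 1000000 assigned tags) for 24408 gene symbols and 6 libraries, per the file headers. Per the labels' protocols, cDNA was amplified by PCR and read as 3' SAGE tags; BWA 0.6.2 and build mm9 come from the submitters' processing notes. The sources used here do not state the anchoring enzyme, how tags were assigned to genes or whether strand was used. Within 0.001, 100% of values were whole multiples of the smallest in their library, which gave tag counts. With 1 library a group no replicate test exists. As an alternative, recovered tags were set against depth by an exact binomial test, two-sided, with Benjamini-Hochberg adjustment at 0.05. It compares 2 libraries and not the conditions, and called 5731 genes for Day 2 against Untreated and 1253 for Acta2 high against Acta2 low.

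Members and lists were chosen with earlier results of these data known; the rule named all 40 members, and values in all 6 libraries went first to those reaching 10 CPM. The median gene was taken over genes with a mean of at least 10 CPM in the compared libraries. Ratios for genes without a tag in Untreated took 3 tags as the floor, and counts and intervals were tested on simulated data. With CATG assumed as the anchoring site, the 3'-most tag of 21 bases was shared with another annotated gene for 8 of 40 members (Ccnb1, Cdc20, Cdc25c, Cenpe, Cenpf, Prc1, Cks1b and Stmn1), and that of 14 bases for 37. Over their annotated transcripts, Cenpf and Prc1 each shared a tag of 21 bases with 349 other genes. Cenpa shared a tag with 346 at 14 bases and with no other gene at 21. Promoter sequences are from RefSeq (GRCm38.p6), a later build than mm9. Work was done in Python 3.11.15 with numpy 2.4.6, pandas 2.3.3, scipy 1.17.1 and matplotlib 3.10.9.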

Additional observations from a re-analysis of the deposited data

How the results depend on the processing

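No paired analysis was possible because each group is 1 library. Counts of members at least 4-fold higher than in Untreated moved with the treatment of low values: a pseudocount of 5 CPM gave 10 at Day 2, 10 at Day 4, 0 at Day 7, 10 in Acta2 high and 12 in Acta2 low, and a mean of at least 10 CPM over all 6 libraries, which leaves 14 members, gave 12 at Day 2, Day 4, Acta2 high and Acta2 low alike. The Day 7 count of 8 was 29 with a pseudocount of 0.1 CPM, 4 relative to the median gene, 17 without the 100 most abundant genes and 25 by a 2-fold rule. Relative to the median gene the other counts were 22 at Day 2, 24 at Day 4, 26 in Acta2 high and 20 in Acta2 low. The order of the 2 sorts thus turns with this setting. The 2-fold rule put 1 member lower at Day 2, Day 4, Acta2 high and Acta2 low, and 2 higher at Day 4 against Day 2. The count of 9 lower at Day 7 against Day 4 was 1 with a pseudocount of 5 CPM, 14 with 0.1 CPM, 5 with the mean filter and 28 by the 2-fold rule. With a pseudocount of 0.1 CPM the median difference was 4.66 log2 at Day 2 and 4.81 in Acta2 low, since members at 0 in Untreated weigh more; a pseudocount of 1 CPM is itself above most Untreated levels. Requiring the binomial test beside the 4-fold rule moved no count by more than 1.5 times, nor did median-ratio scaling. No member past 4-fold changed sign under any of the 6 alternatives that give it a value. Depth limits the members under 10 CPM in every library (20 of 40), for which a few tags decide the ratio.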
